A study of Mus musculus with 11 samples.

Results

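The genes described here are 10 markers of endothelium, the cell layer that lines blood and lymphatic vessels, in the developing lower jaw of the mouse. They were taken as every probe set whose single gene symbol in the array annotation was Pecam1, Cdh5, Esam, Cldn5, Kdr, Flt1, Tek, Tie1, Emcn or Egfl7, which gave 17 of the 45101 probe sets on the array and 10 of the 18194 genes with a name. The tissue was the mandibular arch, the paired swelling of the embryonic face that forms the lower jaw and the front of the tongue. All embryos were of the ICR strain, an outbred stock, and none was treated or mutant. The groups were medial tissue at embryonic day (E) 9.7 (1 array), E10.5 (3 arrays), E11.5 (2 arrays) and E14.5 (1 array), and lateral tissue at E9.7 (1 array) and E10.5 (3 arrays). At E10.5 the medial piece was cut at the distal end of the lateral lingual swellings, and the lateral piece was the rest of the arch. The E14.5 array is labelled as tongue and as anterior 2/3, so stage and dissection cannot be told apart there. Each time point's RNA came from a pool of 40 embryos. Nothing in the labels says that replicate arrays came from separate pools, so the p-values cover array-to-array spread alone, and that spread may be technical.

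Endothelial cells are held together by junction proteins, among them VE-cadherin (Cdh5), claudin-5 (Cldn5), PECAM-1 (Pecam1) and ESAM (Esam). They read growth signals through receptor tyrosine kinases. Kdr and Flt1 bind VEGF ligands, Kdr as the main signalling receptor and Flt1 largely as a trap for ligand. Tek (Tie2) binds angiopoietins, and Tie1 is its partner receptor. Emcn codes for endomucin, a sialoglycoprotein of venous and capillary endothelium, and Egfl7 codes for a secreted protein that endothelial cells deposit in their matrix. In the pharyngeal arches, vessels carry blood through the arch arteries and spread through the mesenchyme as a plexus. In bulk tissue, fewer endothelial cells and less RNA per cell cannot be told apart.

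Values are log2 signals after quantile normalization across the 11 arrays, and signals of different probe sets were not compared with each other. Summed levels of gene lists, given below, add signals of different probe sets on a linear scale, so the brightest genes weigh most. This scaling was used because 2 arrays, replicate 1 of medial E10.5 and replicate 1 of medial E11.5, were of low signal as deposited. Their medians were 2.37 and 2.47, against 5.20 to 5.73 on the other 9. Each gene is given by its probe set of highest mean. A gene was called changed when its p-value in limma, adjusted over the 11968 genes tested, was under 0.05. All 10 markers were tested, and 14 of their 17 probe sets passed the filter on dim signals. The 3 dim ones were 1 of the 2 for Cdh5 and 2 of the 4 for Flt1. Each of the 10 genes reached the filter level of 4.86 on at least 10 of the 11 arrays.

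Across the 6 groups, medial E9.7 tissue had the highest mean for 9 of the 10 markers, and Cdh5 was highest in the E14.5 array. Medial E9.7 is a single array, so its level is not averaged over replicates. The share of all tested genes that were highest or lowest in each group is not given. How far these counts of markers exceed that share was therefore not tested. Medial E11.5 tissue had the lowest mean for 6 markers, medial E14.5 tissue for Kdr, Emcn and Egfl7, and lateral E9.7 tissue for Pecam1. In 5 of the 9 genes led by medial E9.7 (Kdr, Flt1, Tek, Cldn5 and Egfl7), the gap to the next group was over the residual SD between replicate arrays. In Pecam1, Tie1, Esam and Emcn it was within it. Of the 50 pairs of neighbouring groups over all markers, 29 lay within the residual SD of the gene and 21 beyond it.

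**Figure D1:**
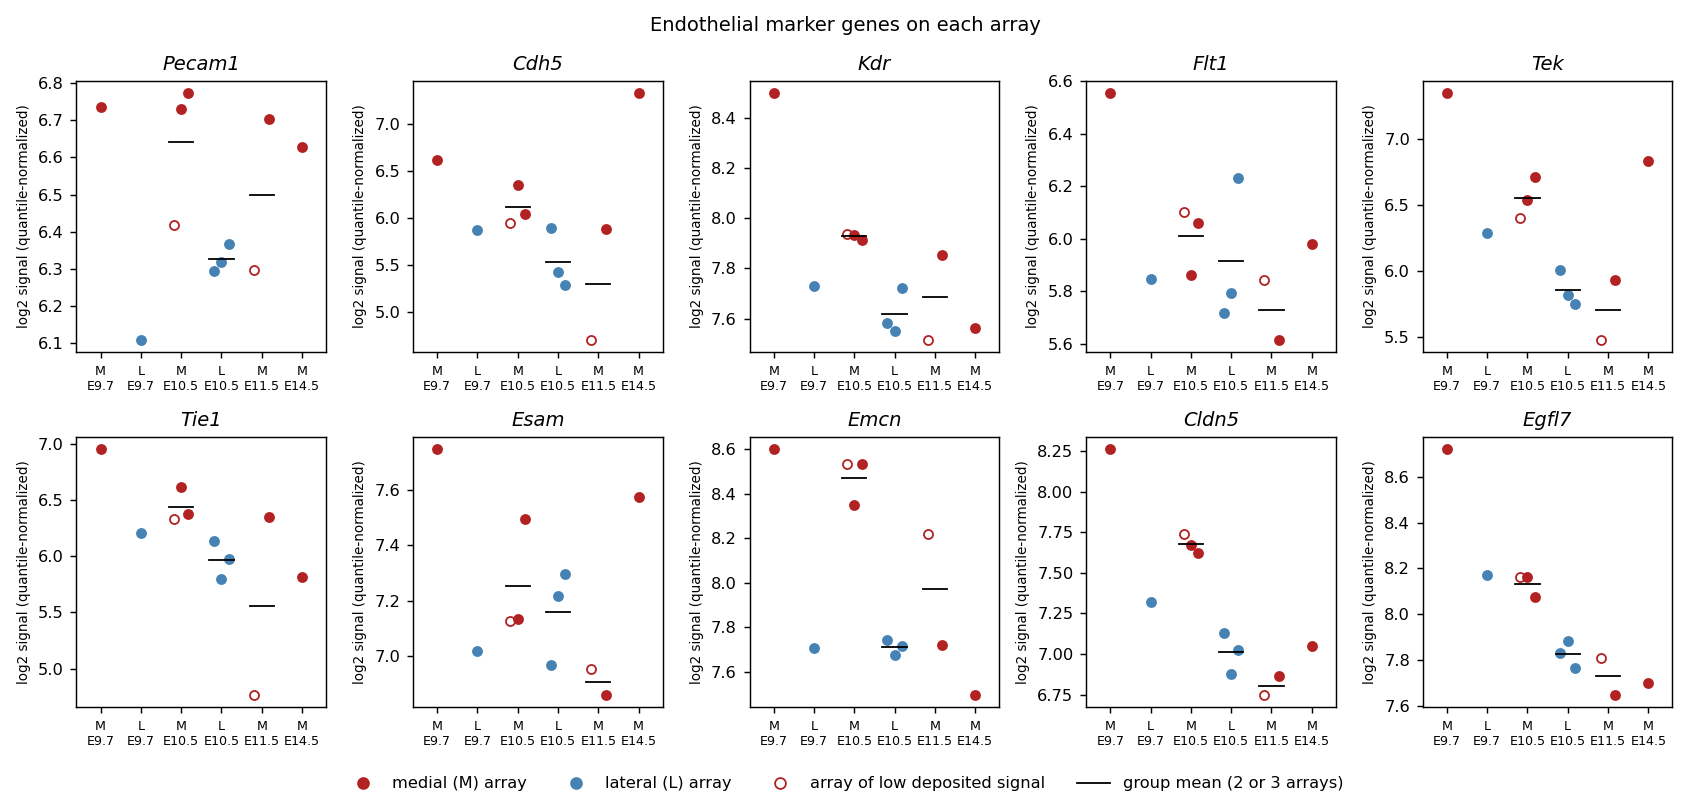
Log2 signal of each endothelial marker (one panel per gene) on all 11 arrays, by group along the horizontal axis; each point is an array, and open points are the 2 of low signal. Medial E9.7, a single array, is the highest group in 9 of 10 panels (the share of all genes is not given), and the 3 medial E10.5 arrays lie above the 3 lateral ones in 8 of 10.

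The first comparison set medial against lateral tissue at E10.5, the contrast that the study's design names. All 10 markers had a higher mean in medial than in lateral tissue, by 0.09 to 0.76 on the log2 scale, although all 10 turned negative on the values as deposited. A positive difference was found in 47.4% of all tested genes. The median difference was 0.39 over the markers and -0.01 over all genes tested. Cldn5, Emcn and Tek passed the test, at 1.59 to 1.70 times the lateral level, and no marker was called lower. Among all tested genes, 2.82% were called higher in medial tissue and 1.8% lower. In 8 markers all 3 medial arrays lay above all 3 lateral ones, which held for 12.1% of tested genes. Flt1 and Esam were the 2 whose arrays overlapped.

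Among the junction genes, Cldn5, the tight junction claudin of endothelium, had 7.74, 7.67 and 7.62 in the 3 medial arrays, against 7.13, 6.88 and 7.03 in the 3 lateral arrays. The regions did not overlap, and Cldn5 was higher in medial tissue by 0.67 ± 0.11 (SE, limma adjusted p = 0.0083). Pecam1, an adhesion molecule of endothelium and platelets, had 6.42, 6.73 and 6.77 in medial tissue, against 6.29, 6.32 and 6.37 in lateral tissue. Its lowest medial array, the low-signal replicate 1, was only just above the highest lateral one. The difference of 0.31 ± 0.14 missed the threshold (limma adjusted p = 0.328), with a 95% interval of -0.01 to 0.64. Without both arrays of low signal, Pecam1 was called, at 0.43 ± 0.08 (limma adjusted p = 0.0397). Cdh5, the cadherin of the endothelial adherens junction, had 5.94, 6.35 and 6.04 in medial tissue, against 5.89, 5.42 and 5.29 in lateral tissue. The lateral arrays were widely spread, and the difference of 0.58 ± 0.29 did not pass (limma adjusted p = 0.377, 95% interval -0.08 to 1.23). Esam, a tight junction adhesion molecule, had 7.13, 7.13 and 7.49 in medial tissue, against 6.96, 7.21 and 7.30 in lateral tissue. These arrays overlapped, and the difference was 0.09 with a 95% interval of -0.23 to 0.41.

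Among the receptors, Tek had 6.40, 6.54 and 6.71 in medial arrays, against 6.01, 5.82 and 5.75 in lateral arrays. The regions were well apart, and Tek was higher in medial tissue by 0.69 ± 0.15 (limma adjusted p = 0.0320). Its partner Tie1 had 6.33, 6.61 and 6.37 in medial tissue, against 6.14, 5.80 and 5.97 in lateral tissue. The regions did not overlap, but the gene varied widely between replicates elsewhere, and its difference of 0.47 ± 0.33 missed the threshold (limma adjusted p = 0.545). Kdr had 7.94, 7.93 and 7.91 in medial tissue, against 7.58, 7.55 and 7.72 in lateral tissue. The medial arrays were nearly equal and all above the lateral ones, at a difference of 0.31 ± 0.12 that did not pass (limma adjusted p = 0.234, 95% interval 0.04 to 0.58). Flt1 had 6.10, 5.86 and 6.06 in medial tissue, against 5.72, 5.79 and 6.23 in lateral tissue. Its highest array was a lateral one, and the difference was 0.10 with a 95% interval of -0.26 to 0.45.

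Emcn, the endomucin gene, gave the largest difference of the 10. It had 8.53, 8.35 and 8.53 in medial arrays, against 7.74, 7.67 and 7.72 in lateral arrays, a difference of 0.76 ± 0.14 (limma adjusted p = 0.0147). Every medial array was far above every lateral one. Egfl7 had 8.16, 8.16 and 8.07 in medial tissue, against 7.83, 7.88 and 7.76 in lateral tissue. These did not overlap either, and the difference of 0.31 ± 0.10 missed the threshold (limma adjusted p = 0.166, 95% interval 0.08 to 0.54). Its other 3 probe sets were also higher in medial tissue.

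The calls at E10.5 rested on few arrays. Cldn5 lost its call without lateral E10.5 replicate 2 (limma adjusted p = 0.0560), and Emcn without medial replicate 3 or any one lateral replicate (0.0519 to 0.0781). Tek lost it without medial replicate 2 or 3 or any one lateral replicate (0.0555 to 0.156). With each array centred on its median in place of quantile normalization, Emcn alone stayed called. On the values as deposited, where medial replicate 1 is dim, the 10 differences ran from -1.005 to -0.219 and the median of all genes was -1.03. All 10 markers lay above that median. In all, 2 sets of arrays that were alike in their spiked-in control signals held both regions at E10.5. The sets held 1 medial array each, against 1 and 2 lateral arrays. The medial array was higher in 10 of 10 markers in both, with medians of 0.45 and 0.46, against -0.02 over all genes in each. These are subsets of the arrays compared above, and the share of all genes in that direction is not given. With the control-signal group as a fixed effect, Pecam1 (limma adjusted p = 0.0116) and Cdh5 (0.0334) were called higher as well. Under that term, calls over all genes also rose, from 554 to 1254 in either direction and from 338 to 727 genes called higher.

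**Figure D2:**
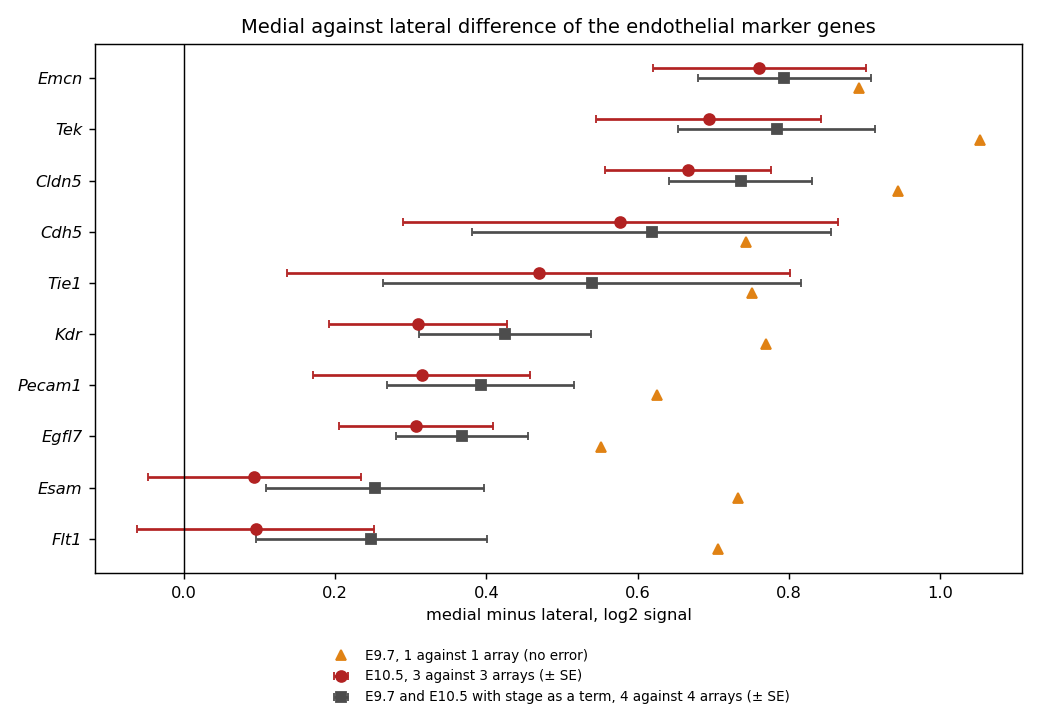
Medial minus lateral difference (horizontal axis, log2 signal) of each marker, at E9.7 (triangles, 1 array per region, no error), at E10.5 (circles, 3 arrays per region) and over both stages (squares, 4 arrays per region); bars are ± SE from limma. Every point lies above 0, from 0.09 to 1.05, on quantile-normalized values; on the values as deposited the 10 E10.5 differences are below 0 but above the median of all genes there, -1.03.

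At E9.7 each region had 1 array, so no test was possible. All 10 markers were higher in the medial array, by 0.55 (Egfl7) to 1.05 (Tek), against 53.4% of the genes measured. Cldn5 had 8.27 in the medial array against 7.32 in the lateral one, Emcn had 8.60 against 7.71, and Kdr had 8.50 against 7.73. Tek was the only one beyond 2-fold, with 7.34 in the medial array against 6.29 in the lateral one, and 1.09% of genes were beyond 2-fold higher. All 17 probe sets of the markers had the same direction, including the 3 dim ones. At E10.5, 15 of the 17 did, and the 2 exceptions were dim probe sets of Cdh5 and Flt1.

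**Figure D3:**
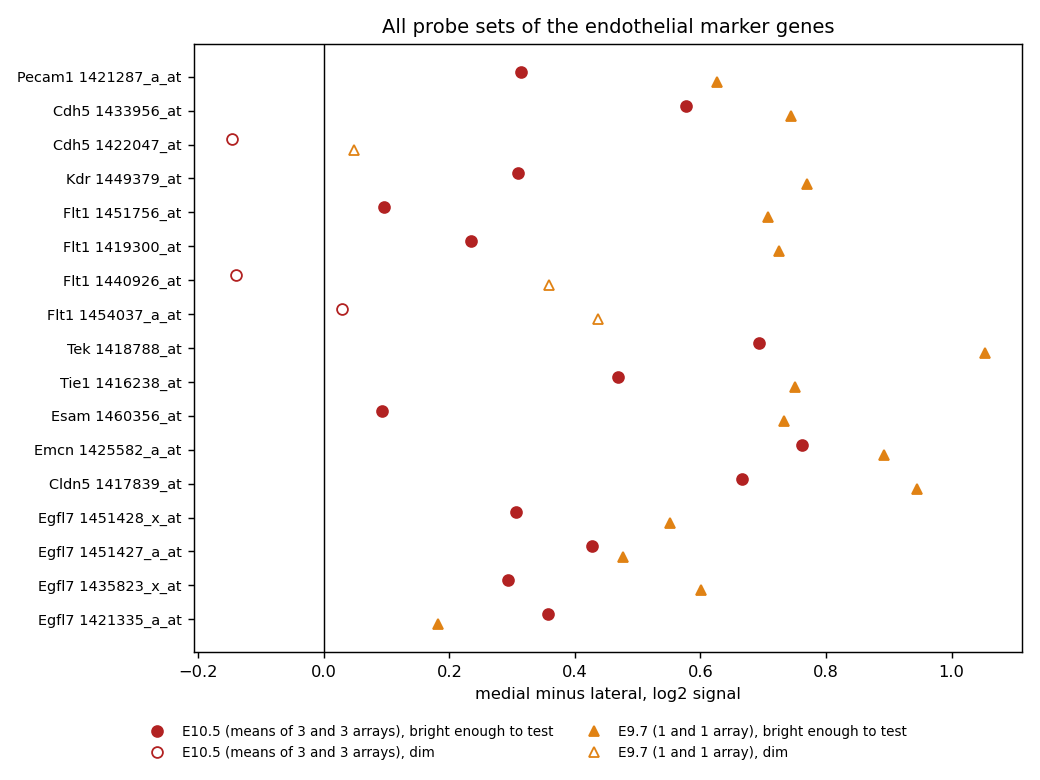
Medial minus lateral difference (horizontal axis, log2 signal) of all 17 probe sets of the 10 markers, at E10.5 (circles) and at E9.7 (triangles); open points are dim probe sets. All 17 are above 0 for medial minus lateral at E9.7, and 15 of 17 at E10.5.

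Over both stages together, with 4 arrays per region and stage as a term, Cldn5, Emcn, Tek and Egfl7 were called higher in medial tissue, against 3.88% of tested genes. Cldn5 was higher by 0.74 ± 0.09 (limma adjusted p = 0.0013), Emcn by 0.79 ± 0.11 (0.0025), Tek by 0.78 ± 0.13 (0.0057) and Egfl7 by 0.37 ± 0.09 (0.0358). Cldn5, Emcn and Tek kept their call whichever of these 8 arrays was left out, and Egfl7 lost it each time, at limma adjusted p-values of 0.0555 to 0.166. Pecam1 was called without medial E10.5 replicate 1 (0.0378). Without both arrays of low signal 7 markers were called, with Pecam1, Cdh5 and Tie1 added to the 4. With control-signal group as a fixed effect 7 were called, with Pecam1, Cdh5 and Kdr added. Calls over all genes rose too under that term, from 726 to 1363 in either direction. The comparison over both stages shares its E10.5 arrays with the comparison at E10.5. In 8 markers the medial array was higher at E9.7 and the regions did not overlap at E10.5, which held for 10.1% of tested genes.

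Some genes of other cell types also differed between the regions at E10.5. Of 13 epithelial genes, 8 were called higher in medial tissue and none lower, led by Krt18 (1.49 ± 0.15, limma adjusted p = 0.0006) and Krt8 (1.34 ± 0.14, 0.0008), keratins of simple epithelium. The summed level of the list, on a linear scale, was 3562 to 3963 in medial tissue, against 2097 to 2183 in lateral tissue. Of 10 mural genes, which mark the muscle and pericytes around vessels, Rgs5 and Des were called higher in medial tissue. Rgs5, a pericyte gene, had 9.20, 9.10 and 9.51 in medial arrays, against 3.64, 4.02 and 4.08 in lateral arrays. All 3 lateral arrays were under the filter level. The summed mural level was 1875 to 2878 in medial tissue, against 1838 to 2058 in lateral tissue. The median difference of the 10 mural genes was 0.09, and 7 of them were positive. Acta2, Pdgfrb and Mcam were lower in medial tissue, at -0.70, -0.39 and -0.13, and none of them was called. Among 8 red cell genes, 4 megakaryocyte genes and 7 macrophage genes, none was called in either direction. The part of these other cell types in the marker differences was not tested.

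The wider endothelial programme was read from longer lists. Of 16 genes for VEGF and angiopoietin ligands, their co-receptors and other vessel receptors, 5 were called higher in medial tissue and 1 lower, with a median difference of 0.17. Nrp2, a semaphorin and VEGF co-receptor that neural crest also expresses, was higher by 1.34 ± 0.13 (limma adjusted p = 0.0007). Vegfc, a ligand for the lymphatic receptor Flt4, was higher by 1.04 ± 0.15 (0.0034), and Aplnr, the apelin receptor, by 0.90 ± 0.13 (0.0038). Angpt1, the ligand of Tek, was higher by 0.88 ± 0.20 (0.0435) and Acvrl1, a BMP9 receptor of endothelium, by 0.81 ± 0.17 (0.0314); these 2 were named after their values were seen. The 3 lateral arrays of Angpt1 were under the filter level, at 4.52 to 4.71, and it passed the filter only through the medial E10.5 arrays, where it was high, so it had to differ. Pgf, a ligand of Flt1, was lower by 0.58 ± 0.11 (0.0140). Of 16 transcription factors, Mef2c was called higher, and Fli1 and Nr2f2 were called lower. Nr2f2, a factor of venous endothelium that is also broadly expressed in mesenchyme, was lower by 1.57 ± 0.29 (0.0146). Of 18 other surface and junction genes, none was called higher and Dll4, an arterial Notch ligand, was lower by 0.71 ± 0.15 (0.0318), although 12 of them had a positive difference and the list's median was 0.17. Of the 5 lymphatic markers, 2 were tested, and Stab1, a scavenger receptor of sinusoidal and lymphatic endothelium and of macrophages, was called higher by 0.63 ± 0.13 (0.0288).

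**Figure D4:**
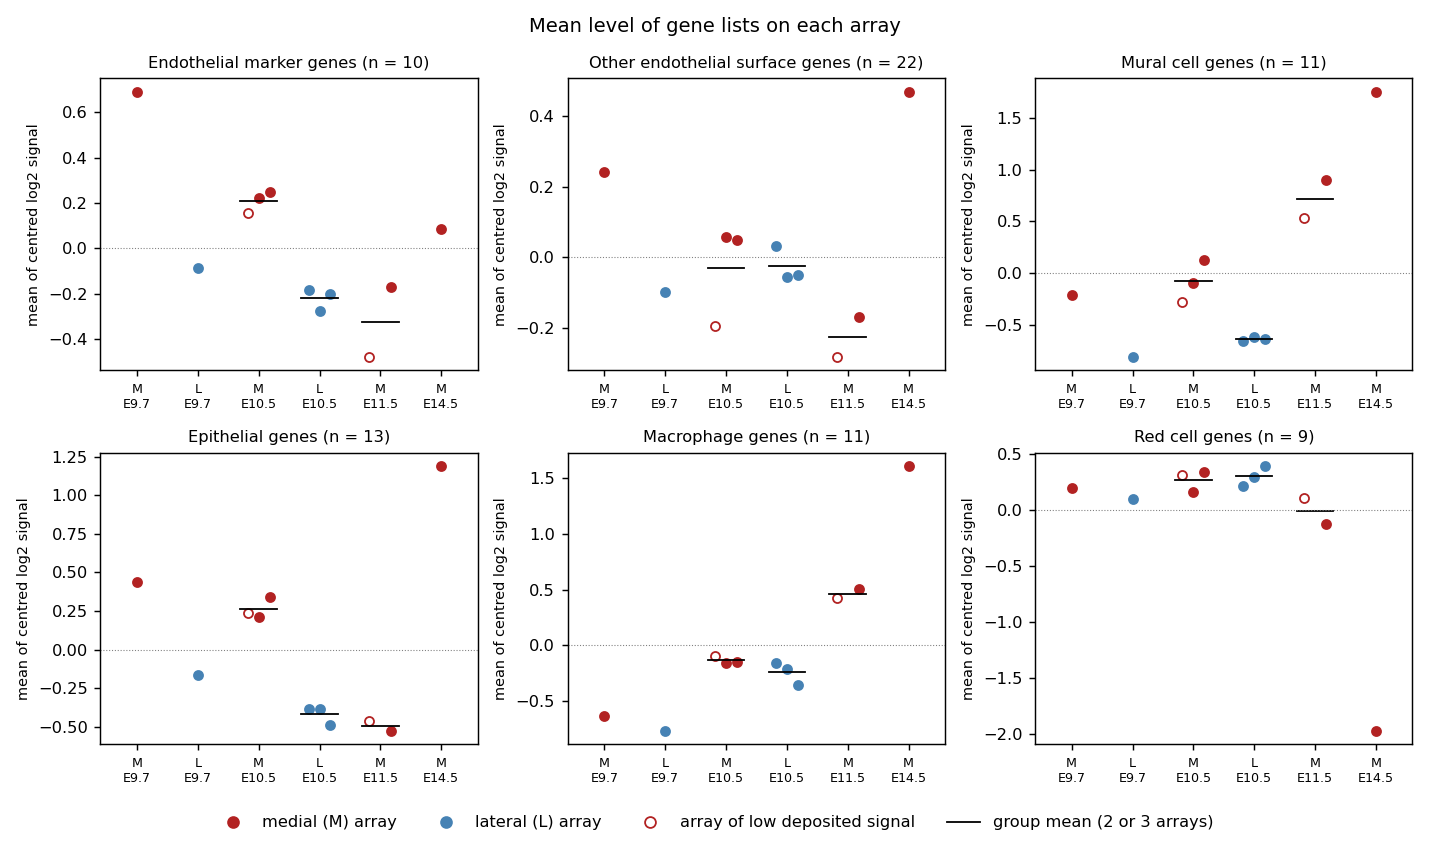
Mean log2 signal of 6 gene lists on each array (dim genes included), each gene centred on its own mean over the 11 arrays, with medial (M) and lateral (L) groups by stage along the horizontal axis; open points are the arrays of low signal. The 3 medial E10.5 arrays lie above the 3 lateral ones for the endothelial markers, mural cells and epithelium, and the regions overlap for the other endothelial surface genes. The mural gap at E10.5 rests mostly on Rgs5, with a difference of 5.36. The median over the 10 tested mural genes is 0.09, and 7 of them are positive.

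The stage comparison in medial tissue set E11.5 against E10.5, with 2 and 3 arrays. All 10 markers had a lower mean at E11.5, by 0.14 to 0.88, and did so under every scaling tried. A lower mean was found in 49.5% of tested genes. The median difference was -0.45 over the markers and 0.0033 over all genes. Cldn5 and Tek fell past the threshold, against 2.6% of tested genes called lower. Cldn5 had 6.75 and 6.87 at E11.5, against 7.74, 7.67 and 7.62 at E10.5, and fell by 0.87 ± 0.12 (limma adjusted p = 0.0025). Tek had 5.48 and 5.93 at E11.5, against 6.40, 6.54 and 6.71 at E10.5, and fell by 0.84 ± 0.17 (0.0162). In both genes all E11.5 arrays were below all E10.5 ones. In 8 markers the stages did not overlap, which held for 13.6% of tested genes. Within both sets of arrays alike in control signals that held both stages, 10 of 10 markers were lower at E11.5, with medians of -0.37 and -0.39. The medians over all genes were 0.02 and -0.01. Each set held 1 array per stage, and 1 of the sets was the 2 arrays of low signal. These are subsets of the arrays compared above, and the share of all genes that were lower within each set is not given.

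The other receptors and junction genes varied more between the 2 E11.5 arrays. Tie1 had 4.76 and 6.34 at E11.5, against 6.33, 6.61 and 6.37 at E10.5, and its difference of -0.88 ± 0.37 missed the threshold (limma adjusted p = 0.252). Cdh5 had 4.70 and 5.88 at E11.5, against 5.94, 6.35 and 6.04 at E10.5 (-0.82 ± 0.32, 0.216). In both genes the far lower value came from the array of low signal. Without E11.5 replicate 2, Tie1 and Cdh5 were called lower (0.0030 and 0.0248), and without both arrays of low signal their differences were -0.15 and -0.31 and neither was called. Tek lost its call without E11.5 replicate 1 (0.101) and without both arrays of low signal (0.0587). Emcn had 8.22 and 7.72 at E11.5, against 8.53, 8.35 and 8.53 at E10.5, and was called lower without E11.5 replicate 1 (0.0229). Egfl7 had 7.81 and 7.65 at E11.5, against 8.16, 8.16 and 8.07 at E10.5, a difference of -0.41 ± 0.11 that missed the threshold (0.0748). With control-signal group as a fixed effect, Cdh5 (limma adjusted p = 0.0114), Egfl7 (0.0178) and Emcn (0.0212) were called lower as well. Calls over all genes rose too under that term, from 6.92% to 18.2% in either direction, and from 311 to 1006 genes called lower. Kdr, Flt1, Esam and Pecam1 had differences of -0.35 to -0.14, none of them called.

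**Figure D5:**
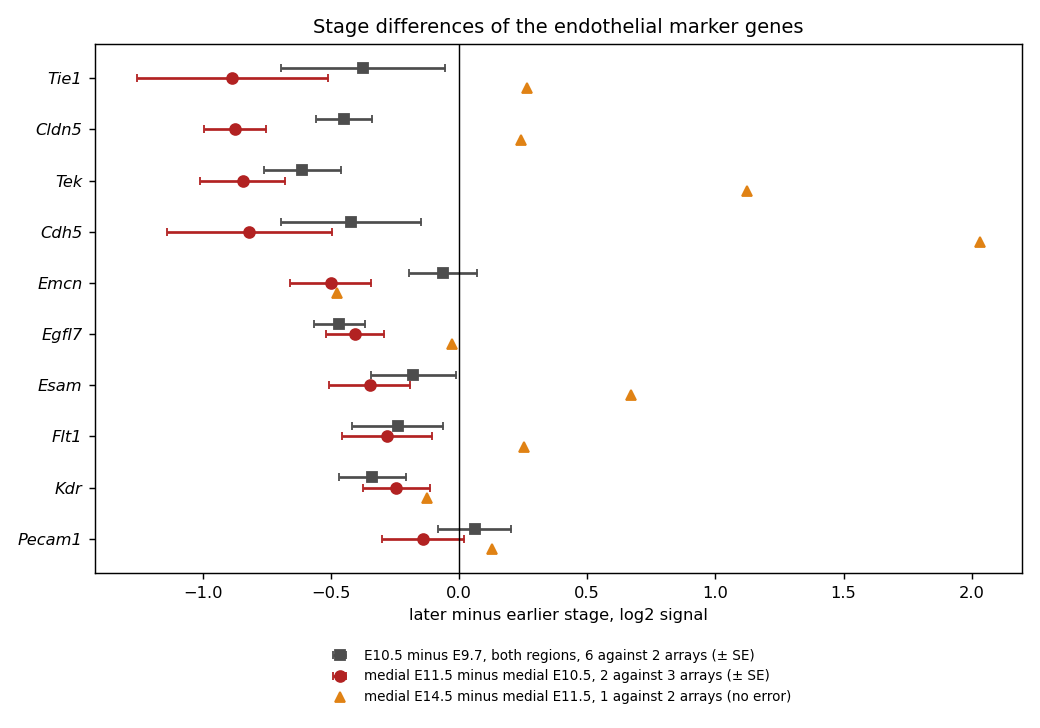
Later minus earlier stage (horizontal axis, log2 signal) of each marker, for E10.5 minus E9.7 over both regions, medial E11.5 minus medial E10.5 (bars are ± SE from limma) and medial E14.5 minus medial E11.5 (1 array at E14.5, no error). All 10 markers lie below 0 for E11.5 minus E10.5, from -0.88 to -0.14.

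Other lists moved between E10.5 and E11.5 in medial tissue as well, where 4.32% of all tested genes were called higher and 2.6% lower. Epithelial genes fell, with 11 of 13 called lower and 1 higher, and their summed level was 1990 to 2112 at E11.5, against 3562 to 3963 at E10.5. Of 10 mural genes, 4 were called higher and Rgs5 lower. Kcnj8, one of the 4, was under the filter level on all E10.5 arrays and passed it only through the E11.5 arrays, where it was high. Abcc9, another of the 4, had 3.70, 4.72 and 5.24 in medial tissue at E10.5, against 6.38 and 7.07 at E11.5. Its lateral E10.5 arrays were under the filter level, so it too reached the required 2 arrays only through E11.5. Acta2, smooth muscle actin, which skeletal muscle precursors also express, rose by 4.95 ± 0.21 (limma adjusted p = 5.85e-06), and the summed mural level was 4448 to 6274 at E11.5, against 1875 to 2878 at E10.5. Acta2 was the brightest mural gene at E11.5, at 11.49 and 11.89, against 6.85, 6.34 and 7.03 at E10.5, so the sum rested largely on it. Of the 10 mural genes, 7 had a positive difference, with a median of 0.42, while Pdgfrb and Notch3 had -0.04 and -0.15. Of 7 macrophage genes, 4 rose, and their sum was 608 to 648 at E11.5, against 336 to 370 at E10.5. All 8 red cell genes tested had a lower mean at E11.5, as 49.5% of tested genes did, with a median difference of -0.19. Hbb-bh1 alone of them was called lower (-0.69 ± 0.16, limma adjusted p = 0.040). The part of these shifts in the marker differences was not tested. Of the 16 ligand and receptor genes, 2 were called higher at E11.5 and 4 lower, of the 16 transcription factors likewise 2 and 4, and of the 18 other surface and junction genes 1 was called higher (Thbd) and none lower. Vegfc fell by 0.96 ± 0.16 (limma adjusted p = 0.0077) and Nrp2 by 0.86 ± 0.15 (0.0084), while Pgf rose by 1.55 ± 0.12 (0.0001). Tal1 and Lmo2, factors of blood and vessel formation, fell by 0.73 ± 0.12 (0.0074) and 0.71 ± 0.13 (0.0109), and Hey1, a Notch target, rose by 0.89 ± 0.13 (0.0028). Among the 4 ligand and receptor genes called lower, Vegfd and Angpt1 were under the filter level on both E11.5 arrays.

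Between E9.7 and E10.5, with region as a term and 1 array per region at E9.7, 9 of 10 markers were lower at E10.5, which held for 46.2% of tested genes. Egfl7 fell by 0.47 ± 0.10 (limma adjusted p = 0.0246), Cldn5 by 0.45 ± 0.11 (0.0410) and Tek by 0.61 ± 0.15 (0.0421), against 3.02% of tested genes called lower. Each of the 3 lost its call without either E9.7 array (0.114 to 0.416), Cldn5 and Tek also without replicate 2 or 3 of either region at E10.5, and Egfl7 also without lateral E10.5 replicate 3 (0.0587). Cldn5 also lost it with control-signal group as a fixed effect (0.0619). Pecam1 alone had a higher mean at E10.5, by 0.06, and it was lower on the values as deposited and on centred values. In medial tissue all 10 markers were lower at E10.5 than at E9.7, by 0.10 to 0.79, and in 9 of them the E9.7 array lay above every E10.5 array, which held for 26.3% of genes. In lateral tissue 6 were lower and 4 higher, with a median of -0.17, against 0.03 over all genes. The lateral E9.7 array lay above every lateral E10.5 array in 5 markers and in 32.6% of genes. It lay below them all in 1 marker and in 40.4% of genes. The difference between regions was not tested. Both comparisons share arrays with the regional comparison. Macrophage genes were higher at E10.5, with 4 of 7 called, among them Csf1r (1.37 ± 0.14, 0.0008), against 3.71% of tested genes called higher. The other called ones, C1qa, Tyrobp and Mrc1, were under the filter level on both E9.7 arrays, at 3.67 to 4.51. The filter counted no E9.7 array, so these genes passed it only through later stages, where they were high.

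At E14.5, in the single array from tissue labelled tongue, the markers differed in direction. Against medial E11.5, 7 were higher and 3 lower, with a median of 0.25, against 0.08 over all genes. Against E11.5 replicate 2 alone, without the array of low signal, 6 were higher and 4 lower. Cdh5 had 7.33 at E14.5, against 4.70 and 5.88 at E11.5, 4.09-fold higher and beyond 2-fold of every E11.5 array, as 11% of genes were. Against replicate 2 alone, Cdh5 was 2.72-fold higher. Its dim second probe set did not share this, with 3.19 at E14.5 against 3.31 and 3.73 at E11.5. Tek had 6.83 at E14.5, against 5.48 and 5.93 at E11.5, and Esam had 7.58 against 6.95 and 6.86. Both were above every E11.5 array, as 5 markers and 46.2% of genes were. Emcn had 7.49 at E14.5, against 8.22 and 7.72 at E11.5, and was the 1 marker below every E11.5 array, as 34.9% of genes were. Kdr had 7.56 at E14.5, between its E11.5 values of 7.52 and 7.85. Other lists differed far more at E14.5. The summed epithelial level was 9295 at E14.5, against 1990 to 2112 at E11.5. The mural sum was 10010 against 4448 to 6274, with Acta2 the brightest gene at 12.51. The red cell sum was 5901 against 23210 to 26550, and it rested on the globins Hba-x, Hbb-y and Hbb-bh1. Hba-x had 8.19 at E14.5, against 12.76 and 12.59 at E11.5, and Hbb-bh1 had 5.36 against 12.91 and 12.33. All 8 red cell genes compared were lower at E14.5, and the globin Hba-a1 was dim on every array. Whether the sum follows red cell number was not tested. The part of these other lists in the marker values was not tested either.

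Promoter windows are shown for the 3 called genes and for Flt1, a marker that was not called, since ETS factors, which bind the core GGAA, act in endothelium. RefSeq (GRCm38.p6) promoter windows run from 250 bases before to 50 after each start, and 7 of 10 markers matched a window. GGAA is in capitals, on either strand (TTCC is the reverse).

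Cldn5: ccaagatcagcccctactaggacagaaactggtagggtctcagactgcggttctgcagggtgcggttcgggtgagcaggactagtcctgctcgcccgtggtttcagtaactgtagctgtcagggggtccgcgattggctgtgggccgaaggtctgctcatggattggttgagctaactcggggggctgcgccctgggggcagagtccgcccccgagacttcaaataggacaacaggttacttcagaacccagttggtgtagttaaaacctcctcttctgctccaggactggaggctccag

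Emcn: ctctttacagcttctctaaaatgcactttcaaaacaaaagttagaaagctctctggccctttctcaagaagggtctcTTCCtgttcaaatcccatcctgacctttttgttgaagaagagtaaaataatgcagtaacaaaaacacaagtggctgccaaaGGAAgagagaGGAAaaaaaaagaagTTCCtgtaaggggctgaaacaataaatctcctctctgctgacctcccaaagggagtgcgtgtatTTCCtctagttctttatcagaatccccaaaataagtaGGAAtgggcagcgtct

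Tek: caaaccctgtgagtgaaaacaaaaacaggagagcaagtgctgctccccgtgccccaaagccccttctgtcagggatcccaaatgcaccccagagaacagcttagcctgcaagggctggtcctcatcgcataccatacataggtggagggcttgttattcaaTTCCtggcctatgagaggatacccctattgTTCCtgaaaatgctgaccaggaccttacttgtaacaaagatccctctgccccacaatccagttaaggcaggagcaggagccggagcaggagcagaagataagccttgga

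Flt1: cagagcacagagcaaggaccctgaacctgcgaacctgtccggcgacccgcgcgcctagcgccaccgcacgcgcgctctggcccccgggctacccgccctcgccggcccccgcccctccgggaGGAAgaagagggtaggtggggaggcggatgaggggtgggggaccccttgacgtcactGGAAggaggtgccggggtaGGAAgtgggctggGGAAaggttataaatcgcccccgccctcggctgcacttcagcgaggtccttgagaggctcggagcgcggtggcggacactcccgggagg

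The windows are Cldn5 at chr16:18776597-18776896 (+), Emcn at chr3:137340828-137341127 (+), Tek at chr4:94739039-94739338 (+) and Flt1 at chr5:147725962-147726261 (-). GGAA occurs 0 times in the Cldn5 window, 6 in Emcn, 2 in Tek and 4 in Flt1. It is found in 96.0% of the 32851 promoter windows and in 8 of the 9 windows of the markers. The longer CCGGAA, which overlaps it, is in 14.9% of all windows and in 1 of 9 (Kdr). AACNGGAA is in 5.66% of all windows and in 2 of 9, the Emcn window and one of the 3 of Egfl7. GATA is in 57.9% of all windows and in 6 of 9. Letters alone were searched, and no binding was measured.

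Over the 11 arrays, the genes whose pattern was most like the mean of the markers were Plbd1 (r = 0.946), Pcdh7 (0.939), Krt8 (0.933), Pla2g7 (0.929), Lmo2 (0.921), Rnf128 (0.915), Vamp5 (0.900) and Plac8 (0.897), of 11513 candidates. These are Pearson correlations over arrays that share scaling, groups and the 2 arrays of low signal, and they are given as a description. Without both arrays of low signal the ranks moved to 2 to 38, with Krt8 and Pcdh7 in the first 8. Among the markers themselves, Tek (0.933) and Cldn5 (0.915) followed the mean of the others most closely, and Emcn (0.520) and Cdh5 (0.580) least.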

How the data were processed

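RNA from 11 samples of mandibular arch was hybridized to Affymetrix arrays from 3 ug of total RNA each, per the labels' protocols. The deposited values are log2 signals that the authors made with Affymetrix Expression Console 1.1, per the submitters' processing notes; the algorithm is not given in the sources used here, and the base was inferred from the range of 0.0887 to 14.5. The 11 arrays were then quantile-normalized together, and their small number limits the precision. The annotation gave a single symbol for 34958 of the 45101 probe sets, several for 932 and none for 9211. By Entrez ID, 34754 were matched to RefSeq names (GRCm38.p6, no coordinates used).

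Each gene was given by its probe set of highest mean. For the tests, the filter kept a gene that was at or above 4.86, the 50th percentile of the whole table, on 2 or more of the 8 replicated arrays. In comparisons with a single array in a group, a gene entered where at least 1 array of the comparison reached that level. Shares of genes there are over 11252 (regions at E9.7), 11972 (medial E10.5 and E9.7), 11805 (lateral E10.5 and E9.7) and 12566 genes (E14.5 and E11.5). Differences were tested with limma 3.58.1 (R 4.3.3) over all 11 arrays, either with a mean for each group (5 residual degrees of freedom) or with additive stage and region terms for E9.7 and E10.5 (6 degrees). P-values were adjusted by Benjamini-Hochberg. Comparisons with a single array in a group have no test; there a gene counts when it is 2-fold or more outside the range of the opposite group. Arrays were grouped into 4 by clustering 43 spiked-in control probe sets on their signals; these groups are not labelled batches.

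The members and lists were chosen with earlier results of these data known. All members are named, the 8 genes most like their mean by Pearson correlation, and per other list and comparison up to 4 genes with the smallest adjusted p, fewer where not every one is shown; genes added beyond that are marked where they stand. The replicate number was not taken as a pairing, since deviations of same-numbered medial and lateral E10.5 arrays correlated at 0.128, -0.294 and 0.478. Same-numbered medial E11.5 and E10.5 arrays correlated at 0.59 and 0.389, and each of these pairs also shared a control-signal group. The alternatives tried changed the scaling, the filter, the probe set summary, the samples fitted, the variance model, the array weights, a term for control-signal group, a replicate block and the arrays included. Comparing E14.5 with E11.5 replicate 2 alone was added after the data were seen.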

Additional observations from a re-analysis of the deposited data

How the results depend on the processing

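The counts of markers called depended on scaling and on which arrays entered. For medial against lateral at E10.5 (3 called), 0 were called on the values as deposited, 1 with each array centred on its median, 8 with array weights, 5 with control-signal group as a fixed effect, and 0 to 3 with 1 array left out. For medial E11.5 against E10.5 (2 called), the counts were 0 as deposited, 1 centred, 1 with only the groups compared, 5 with control-signal group, and 2 to 4 with 1 array left out. For the region over both stages (4 called), they were 0 as deposited, 7 with only the groups compared, 7 with array weights, 7 with control-signal group, 7 without both arrays of low signal, and 3 to 4 with 1 array left out. For E10.5 against E9.7 (3 called), they were 0 as deposited, 1 without a filter, 1 with every probe set on its own, and 0 to 3 with 1 array left out. With the replicate number as a block, 3 and 2 markers were called at E10.5 between regions and between E11.5 and E10.5, and the block changed no call of a marker; it could not be fitted for the additive comparisons, where E9.7 has no replicate numbers. Counts over all genes ranged from 2 (as deposited) to 2833 (array weights) against 554, from 1 to 2182 against 828, from 4 to 1363 against 726, and from 0 to 3506 against 806, in the same order of comparisons. In untested comparisons, markers beyond 2-fold between regions at E9.7 (1) numbered 2 as deposited, 2 centred and 9 at 1.5-fold. Between medial E10.5 and E9.7 (0), 1 was beyond 1.5-fold. Between E14.5 and E11.5 (1), 3 were beyond as deposited, 3 centred, 0 with the mean of the probe sets and 3 at 1.5-fold.

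On the values as deposited, the medial minus lateral difference at E10.5 was -0.57 for Cdh5, -0.36 for Cldn5, -0.67 for Egfl7, -0.22 for Emcn, -0.94 for Esam, -1.005 for Flt1, -0.68 for Kdr, -0.78 for Pecam1, -0.45 for Tek and -0.64 for Tie1. Over both stages it was -0.23 for Cdh5, -0.0091 for Cldn5, -0.35 for Egfl7, -0.51 for Esam, -0.56 for Flt1, -0.30 for Kdr, -0.42 for Pecam1, -0.053 for Tek and -0.28 for Tie1, and Emcn stayed positive at 0.075. The median of all genes was -1.03 and -0.77 in these comparisons, and all 10 markers lay above it in both. Their median minus that of all genes was 0.37 and 0.48, against 0.41 and 0.49 on quantile-normalized values. Pecam1 between E10.5 and E9.7 was -0.38 as deposited and -0.17 centred, against 0.06. With array weights, Esam was -0.020 and Flt1 -0.0090 at E10.5. With 1 array left out, Esam ranged from -0.028 to 0.16 and Flt1 from -0.0035 to 0.25 between regions at E10.5, Pecam1 from -0.34 to 0.062 between E11.5 and E10.5, and between E10.5 and E9.7 Emcn from -0.13 to 0.0025, Esam from -0.50 to 0.14, Flt1 from -0.55 to 0.066 and Pecam1 from -0.095 to 0.22. Of the 8 genes most like the markers, 2 remained among the first 8 without both arrays of low signal and 5 without the E14.5 array. For the other settings, the cause was not tested.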
